A study of Caenorhabditis elegans with 6 samples.

Results

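The genes described here encode general folding factors of the cell: the main Hsp70 and Hsp90 chaperones, the J-domain proteins that stimulate Hsp70, the chaperonin CCT and its partner prefoldin. They were selected by a rule on names, as the rows called hsp-1, hsp-70, hsp-110, daf-21 or sti-1 and all rows named dnj, cct or pfd with a number. The name hsp-110 is not used in the authors' deposited table, so 47 of its 20422 genes were members: 4 Hsp70, Hsp90 and adaptor genes, 29 J-domain genes, 8 CCT subunits and 6 prefoldin subunits. The name rule is wider than the cytosol, since dnj-7, dnj-20, dnj-27 and dnj-29 encode proteins of the endoplasmic reticulum (ER) and dnj-10 and dnj-21 proteins of the mitochondrion. The study compared 3 samples of daf-2; mes-1 adults (strain SS1224, with daf-2 allele e1370 on chromosome III and mes-1 allele bn84ts on chromosome X), called double mutants below, with 3 samples of mes-1 adults (strain SS0415, with bn84ts alone). Both genotypes carry the mes-1 allele, a temperature-sensitive maternal-effect mutation after which worms can lack a germline, and only adults seen to hold no embryos were picked. The daf-2 allele reduces the function of the insulin/IGF-1 receptor. All worms were laid as embryos at 24°C, moved to 15°C on day 1, returned to 24°C as adults on day 5 and collected on day 6, with 100 adults pooled per sample. Nothing in the labels says whether the samples of a genotype came from separate cultures, so the deposited p-values measure the spread between samples, which may be technical.

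Hsp70 binds short hydrophobic stretches of unfolded proteins in a cycle driven by ATP, which J-domain proteins start by speeding ATP hydrolysis. The adaptor STI-1 passes clients from Hsp70 to Hsp90, which completes the folding of kinases, receptors and other signalling proteins. CCT is a barrel of stacked rings that folds actin and tubulin, and prefoldin hands these clients to it. Heat shock factor HSF-1 raises many chaperone genes in stress, and in C. elegans it acts together with the FOXO factor DAF-16 in the long life of daf-2 mutants.

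All values are for RNA of whole worms, in which fewer cells of a type and less RNA per cell cannot be told apart. The authors' deposited table holds, for each gene, a mean normalized count over all 6 samples, a log2 fold change of double mutants over mes-1 with an adjusted p from DESeq2, and 1 RPKM value (a read density scaled for gene length and library size) per genotype, with no value for a single sample. A gene is said to have risen or fallen where its adjusted p was under 0.05. The errors given are implied standard errors, the largest ones that the adjusted p allows, with approximate 95% intervals that are not adjusted for the number of genes. The worth of 1 read in each library, recovered from the means of scarce genes, placed the deepest library 3.06 times above the shallowest. The deepest was a mes-1 library and the shallowest a double mutant library. Of 7 intestine markers 4 were called lower (ifb-2, pept-1, act-5 and vha-6) and none higher. The other 3, ges-1, elt-2 and cpr-1, had log2 fold changes of 0.37, 0.06 and -0.27 and were not called. The RPKM of all 7 summed to 1451 in double mutants and 2165 in mes-1 in the authors' deposited table. Of 6 muscle markers 1 was called higher (myo-3), and of 7 neuron markers 1 (snb-1). Of 5 somatic gonad markers 4 had an adjusted p and 1 was called higher (egl-13). Of 5 hypodermis markers 3 had an adjusted p and none was called. No marker of these lists was called lower. Their median log2 fold changes were 0.19 for muscle, 0.10 for neuron, -0.03 for somatic gonad and 0.04 for hypodermis. Of all genes with an adjusted p, 3.92% were called higher and 6.35% lower. The cuticle collagen genes dpy-7 and rol-6, both hypodermis markers, were near 0 in both genotypes. They were listed at 0.264 and 0.0878 RPKM in double mutants and at 0 RPKM in mes-1. The 12 germline markers summed to 15.0 RPKM in double mutants and 36.8 RPKM in mes-1 per the authors' deposited table. Of these markers 4 had an adjusted p, and none of the 4 was called. The 8 without one include puf-5, with 1.12 RPKM in double mutants and 7.77 RPKM in mes-1, and rme-2, with 0.97 RPKM in double mutants and 6.60 RPKM in mes-1 in the authors' deposited table. Their mean normalized counts of 23.2 and 28.7 were above those of some genes that have an adjusted p, and why they have none was not tested.

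Among the chaperone genes, 1 rose and 1 fell in double mutants. The heat-inducible Hsp70 gene hsp-70 was the riser, and dnj-7, a J-domain gene of the ER, was the faller. Of the 45 members with an adjusted p these 2 are 4.44%, where 10.3% of all genes with an adjusted p were called in the authors' deposited table by DESeq2, 3.92% higher and 6.35% lower. The members without an adjusted p were dnj-3 and dnj-26, both scarce. The authors' deposited table gave 24 of the 45 a positive and 21 a negative log2 fold change, beside 4666 positive and 5154 negative among all 9820 genes. The median was 0.03 for the members, beside -0.03 for all genes. The median size of the log2 fold change, without its sign, was 0.24 for the members and 0.29 for all genes, and 42 of the 45 members (93.3%) lay within 0.5 of 0, as did 71.8% of all genes. Implied standard errors had a median of 0.32 for the members and 0.37 for all genes. Their part in these shares was not tested. At a bounded unadjusted p (the largest that the adjusted p allows), 4 members were under 0.05 with a positive and 2 with a negative fold change, as were 764 and 999 of all 9820 genes. At adjusted p thresholds of 0.01 and 0.1 the 2 calls were the same, where 2.67% and 5.02% of all genes were called higher and 4.8% and 7.19% lower (7.46% and 12.2% in either direction). Among genes with at least 5 RPKM in one genotype 4.78% were called higher and 7.68% lower, 12.5% in all, and the 2 members again made up the calls. For 29 of the 43 members that were not called, the 95% interval lay wholly between -1 and 1 on the deposited log2 scale. Deposited changes can be smaller than the ratio of levels, as for hsp-70, at 4.43-fold with an RPKM ratio of 5.38. These intervals therefore exclude a change of 2-fold on the deposited scale only.

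**Figure D1:**
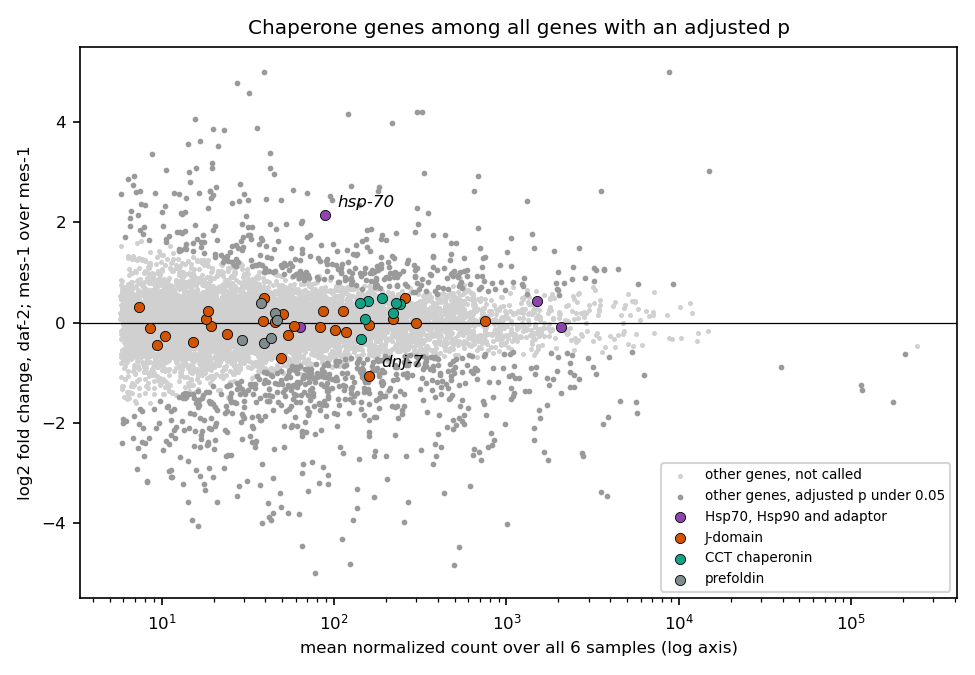
Log2 fold change of double mutants over mes-1 (vertical axis) against the mean normalized count over all 6 samples (horizontal log axis) for 9820 genes of the authors' deposited table. The coloured points are the 45 chaperone genes with an adjusted p, by group; hsp-70 at 2.15 and dnj-7 at -1.06 lie apart from the others, which sit between -0.71 and 0.50.

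The members spanned a wide range of RNA levels, and the 3 most abundant were the same in both genotypes. The constitutive Hsp70 gene hsp-1 was the most abundant, with 374 RPKM in double mutants and 396 RPKM in mes-1 in the authors' deposited table. It was followed in both genotypes by the Hsp90 gene daf-21 and by dnj-20, which encodes an ER J-domain protein of the ERdj3 type. These 3 genes were the members with at least 100 RPKM in both genotypes, and together they held 43.9% of the members' summed RPKM in double mutants and 43.8% in mes-1. Over all 47 members the RPKM of the authors' deposited table summed to 2025 in double mutants and 1896 in mes-1, which is 0.255% of the RPKM of all genes in double mutants and 0.22% in mes-1. At the other end, 6 members had under 5 RPKM in both genotypes.

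**Figure D2:**
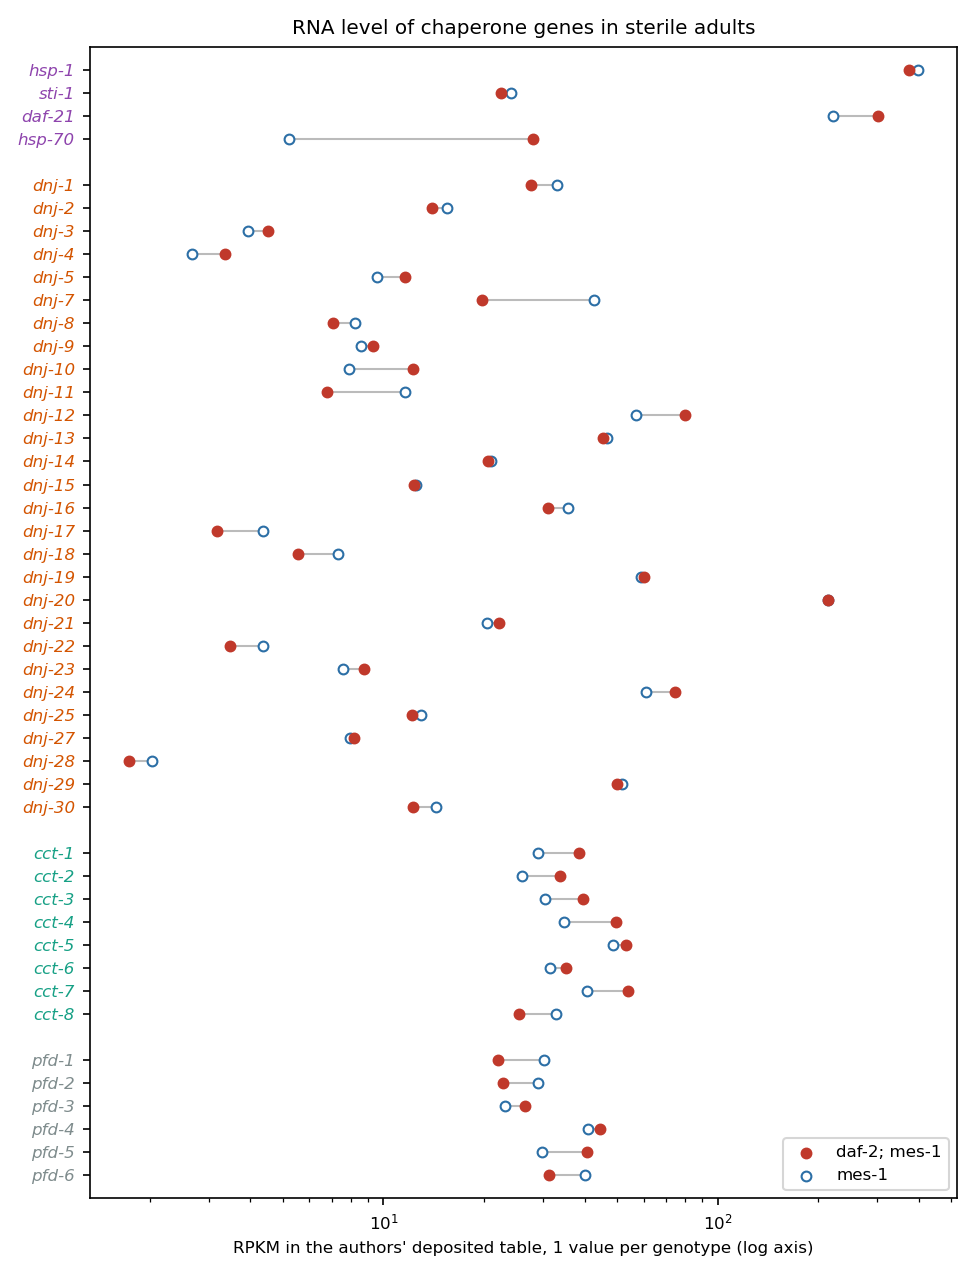
RPKM in the authors' deposited table (horizontal log axis) of 46 chaperone genes, with filled points for double mutants and open points for mes-1, by group from top to bottom. The widest gaps are those of hsp-70, with 28.1 RPKM in double mutants and 5.22 RPKM in mes-1, and of dnj-7, with 19.7 RPKM in double mutants and 42.5 RPKM in mes-1. The gene dnj-26, listed at 0 RPKM in double mutants, is not drawn.

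The inducible cytosolic Hsp70 gene rose while the constitutive one, which makes up most of this RNA, did not pass the test. The gene hsp-70 (C12C8.1, WBGene00002026; chromosome I from 9320353 to 9322503 in the authors' deposited table, whose genome build was not stated) had 28.1 RPKM in double mutants and 5.22 RPKM in mes-1. Its log2 fold change in the authors' deposited table was 2.15, with an implied standard error of 0.39, an interval from 1.38 to 2.91 and an adjusted p of 1.69e-06 (DESeq2). By DESeq2 hsp-70 thus rose 4.43-fold, beside a ratio of 5.38 between its RPKM values. By size it ranked 75th of the 385 genes called higher. For hsp-1 (F26D10.3; chromosome IV from 17278920 to 17281298) the authors' deposited table gave a log2 fold change of -0.08, with an interval from -0.50 to 0.33 and an adjusted p of 0.949. The level of hsp-70 was thus 7.51% of that of hsp-1 in double mutants and 1.32% in mes-1. The summed RPKM of the pair was 402 in double mutants and 401 in mes-1 in the authors' deposited table. The inducible Hsp70 genes F44E5.4 and F44E5.5, which are near-identical copies of each other and so may share reads, were scarce. F44E5.4 had 2.94 RPKM in double mutants and 3.19 RPKM in mes-1, and F44E5.5 had 3.36 RPKM in double mutants and 3.59 RPKM in mes-1, per the authors' deposited table. Their log2 fold changes there were -0.13 and -0.04, not called.

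The Hsp90 gene daf-21, now also called hsp-90, was higher in level but did not pass the test. It lies on chromosome V from 14684903 to 14688528 and had 301 RPKM in double mutants and 221 RPKM in mes-1. In the authors' deposited table daf-21 had a log2 fold change of 0.44, with an implied standard error of 0.22, an interval from 0.01 to 0.87 and an adjusted p of 0.264 (DESeq2). Its exons overlap those of C47E8.4 on the opposite strand, whose mean normalized count in the authors' deposited table was 12.1 beside 1495 for daf-21. The level of daf-21 was 0.805 of that of hsp-1 in double mutants and 0.559 in mes-1. The Hsp70-Hsp90 adaptor gene sti-1 (chromosome V, 773551 to 774859) was listed with 22.4 RPKM in double mutants and 24.0 RPKM in mes-1 in the table deposited by the authors. For sti-1 the log2 fold change was -0.08, with an interval from -0.68 to 0.53. Adaptor RNA was therefore 7.44% of Hsp90 RNA per length in double mutants and 10.9% in mes-1. The Hsp110 gene, which encodes an exchange factor that releases ADP from Hsp70, is listed as C30C11.4 and was not a member by name. The authors' deposited table gave it 61.2 RPKM in double mutants and 59.5 RPKM in mes-1, with a log2 fold change of 0.03 that was not called.

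Of the 27 J-domain genes with an adjusted p, 1 fell and none rose, where 6.35% of all genes were called lower and 3.92% higher. The other 26 had log2 fold changes between -0.71 and 0.49 in the authors' deposited table. The median of the 27 was -0.05. The faller, dnj-7 (C55B6.2, WBGene00001025; chromosome X from 7194521 to 7198252), is the worm counterpart of the mammalian ER co-chaperone p58IPK (DNAJC3). It had 19.7 RPKM in double mutants and 42.5 RPKM in mes-1. The log2 fold change of dnj-7 was -1.06, with an implied standard error of 0.25, an interval from -1.55 to -0.57 and an adjusted p of 4.58e-04 (DESeq2) in the authors' deposited table, and its level in mes-1 was 2.08 times that in double mutants. By size it ranked 465th of the 624 genes called lower.

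The other J-domain genes assigned here to the ER had fold changes close to 0. The authors' deposited table gave dnj-20 214 RPKM in double mutants and 213 RPKM in mes-1, with a log2 fold change of 0.04 and an interval from -0.33 to 0.41, the narrowest of all members. For dnj-29, which encodes the translocon partner SEC63, the levels in the authors' deposited table were 50.1 RPKM in double mutants and 51.6 RPKM in mes-1, with a log2 fold change of -0.02 and an interval from -0.44 to 0.41. The disulfide reductase gene dnj-27, an ERdj5 counterpart, had 8.17 RPKM in double mutants and 7.96 RPKM in mes-1 in the authors' deposited table, with a log2 fold change of 0.01. The difference between dnj-7 and these genes was not itself tested. Of 9 Hsp70 family genes outside the rule 3 (33.3%) were called lower and 0 higher, where 6.35% of all genes were called lower and 3.92% higher. The 3 were the ER Hsp70 genes hsp-4 and hsp-3 (both BiP) and the Hsp70-related gene T14G8.3. On the log2 scale of the authors' deposited table hsp-4 fell by 2.05 (adjusted p = 3.55e-10), hsp-3 by 0.65 (adjusted p = 0.0223) and T14G8.3 by 1.02 (adjusted p = 0.00711), all from DESeq2. In RPKM, hsp-4 had 33.6 in double mutants and 151 in mes-1, and hsp-3 had 310 in double mutants and 500 in mes-1, per the authors' deposited table. The part of the lower intestine markers in the values of dnj-7, hsp-3 and hsp-4 was not tested. The ER Hsp90 gene enpl-1, listed as T05E11.3, had a log2 fold change of -0.27 in the authors' deposited table (adjusted p = 0.717), and the Hsp70-related genes T24H7.2, stc-1 and F11F1.1 had -0.16, -0.32 and 0.04. None of these 4 genes was called.

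**Figure D3:**
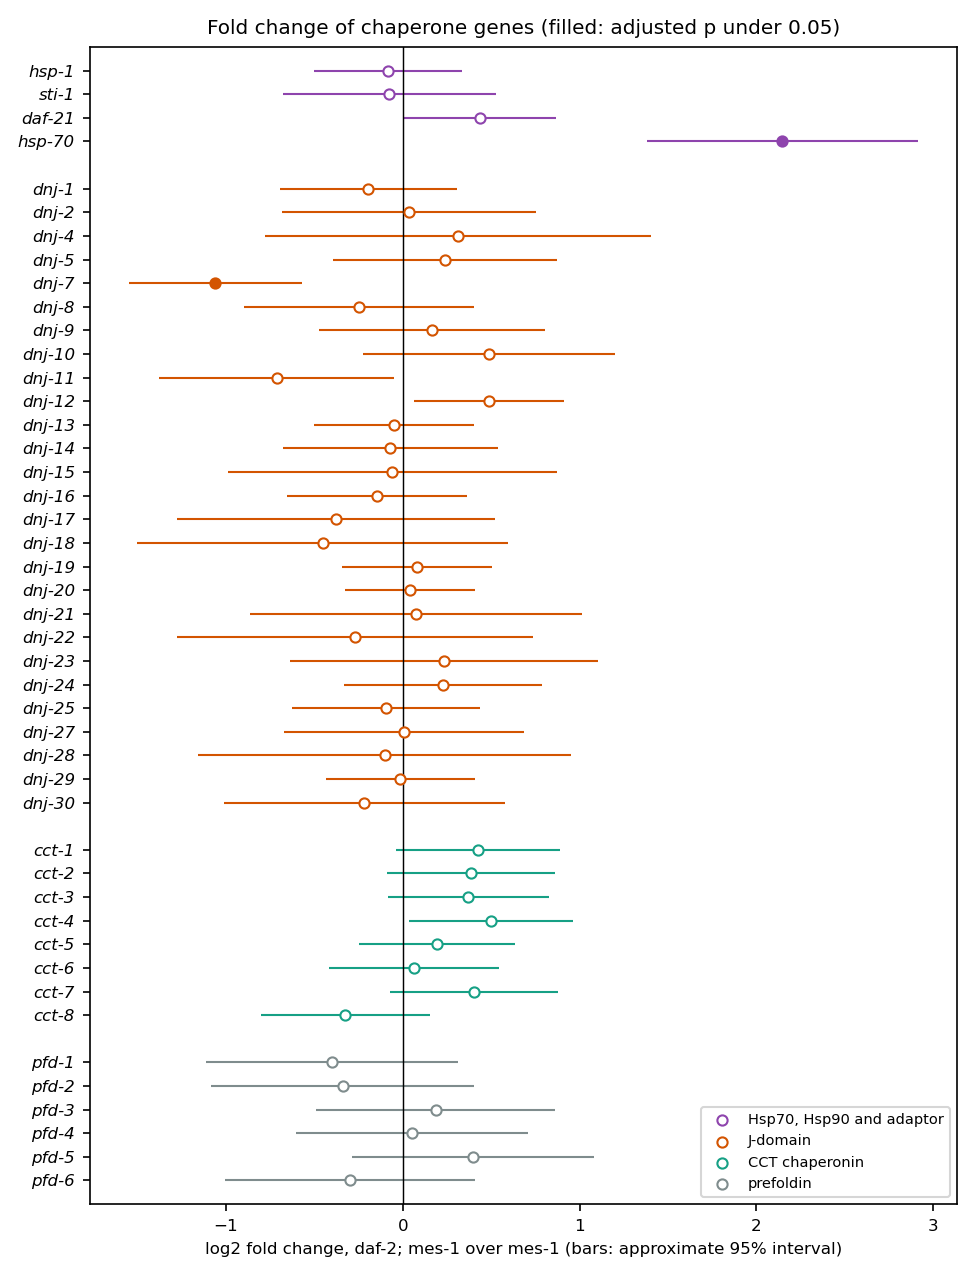
Log2 fold change of double mutants over mes-1 in the authors' deposited table for the 45 chaperone genes with an adjusted p, by group, with bars for the approximate 95% interval and filled points for an adjusted p under 0.05. Only the hsp-70 and dnj-7 points are filled; 7 of the 8 CCT points lie right of 0, and the prefoldin points lie on both sides.

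The cytosolic J-domain genes of types A and B, whose products work directly with HSP-1, were the most abundant J-domain genes after dnj-20 together with dnj-24 and dnj-29. The type A gene dnj-12 had 79.6 RPKM in double mutants and 57.0 RPKM in mes-1. With a log2 fold change of 0.49 in the authors' deposited table, an interval from 0.07 to 0.91 and an adjusted p of 0.167 (DESeq2), it was the only member to have an adjusted p between 0.05 and 0.2. The type A gene dnj-19 had 60.2 RPKM in double mutants and 59.0 RPKM in mes-1, and the type B gene dnj-13, whose product serves with Hsp110 in breaking up protein aggregates, had 45.3 RPKM in double mutants and 46.8 RPKM in mes-1, per the authors' deposited table. The log2 fold change of dnj-19 in the authors' deposited table was 0.08, with an interval from -0.35 to 0.50, and that of dnj-13 was -0.05, with one from -0.50 to 0.40. Differences of the size seen for hsp-70 and dnj-7 thus lie outside the intervals of both genes.

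J-domain genes with special tasks also did not pass the test. Of the mitochondrial genes, dnj-10 (a DNAJA3 counterpart) had 12.2 RPKM in double mutants and 7.89 RPKM in mes-1, with a log2 fold change of 0.49 and an interval from -0.23 to 1.2 in the authors' deposited table. The import motor gene dnj-21 (TIM14) had 22.2 RPKM in double mutants and 20.4 RPKM in mes-1 in the authors' deposited table, with a log2 fold change of 0.07. For dnj-14, which encodes the cysteine string protein of synaptic vesicles, the authors' deposited table gave 20.6 RPKM in double mutants and 21.04 RPKM in mes-1. The clathrin-uncoating auxilin gene dnj-25 had 12.2 RPKM in double mutants and 12.97 RPKM in mes-1 in the authors' deposited table. The lowest log2 fold change after that of dnj-7 belonged to dnj-11, of the ribosome-associated ZRF1 type, which had 6.77 RPKM in double mutants and 11.6 RPKM in mes-1. It was -0.71 in the authors' deposited table, with an interval from -1.38 to -0.05 and an adjusted p of 0.219 (DESeq2). Exons of dnj-11 overlap those of the galectin gene lec-11 on the opposite strand, which had 79.9 RPKM in double mutants and 69.1 RPKM in mes-1, and since the libraries do not mark strand, reads of the 2 genes cannot be told apart where they overlap.

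The other 17 J-domain genes were not assigned to a place in the cell here. Of the 15 with an adjusted p none was called, where 10.3% of all genes were. Their log2 fold changes were positive for 6 and negative for 9, and ran from -0.45 for dnj-18 to 0.31 for dnj-4 in the authors' deposited table. The most abundant of them was dnj-24, with 74.4 RPKM in double mutants and 61.2 RPKM in mes-1 and a log2 fold change of 0.23 in the authors' deposited table. Next came dnj-16, with 31.1 RPKM in double mutants and 35.7 RPKM in mes-1, and dnj-1, with 27.6 RPKM in double mutants and 33.1 RPKM in mes-1, per the authors' deposited table. The gene dnj-2, with a log2 fold change of 0.03 in the authors' deposited table, had 13.97 RPKM in double mutants and 15.5 RPKM in mes-1, so the sign of its difference turned with the measure. On chromosome IV it lies 1222 bases from the prefoldin gene pfd-4 and 7685 bases from dnj-1, and the log2 fold changes of pfd-4 and dnj-1 were 0.05 and -0.19 in the authors' deposited table. Exons of dnj-2 overlap those of B0035.1 on the opposite strand, which had 0.12 on the log2 scale, and those of dnj-14 overlap K02G10.1, with -0.35, both not called in the authors' deposited table. Exons of dnj-17 overlap those of T03F6.3 on the opposite strand. This neighbour rose by 1.03 on the log2 scale (adjusted p = 2.29e-04, DESeq2), while dnj-17 had -0.38, with 3.17 RPKM in double mutants and 4.37 RPKM in mes-1, in the authors' deposited table.

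For the scarcest J-domain genes the reads of each library could be recovered from the mean, because only 1 set of whole reads gave the deposited mean to within 4e-09. The libraries are named by depth within their genotype, since nothing ties them to the numbered samples. The gene dnj-4 had 11, 11 and 4 reads in the deepest, middle and shallowest double mutant library, and 9, 6 and 6 reads in the mes-1 libraries in the same order. After division by the size factors these are 8.36 ± 1.76 normalized reads in double mutants and 6.43 ± 1.21 in mes-1 (SD, n = 3 each), and the genotypes overlap. For dnj-3 the reads were 6, 4 and 6 in double mutants and 12, 4 and 3 in mes-1, or 6.12 ± 3.61 normalized reads in double mutants and 5.00 ± 1.57 in mes-1 (SD, n = 3 each), with the highest value in the shallowest double mutant library. For dnj-28 they were 10, 11 and 4 in double mutants and 18, 7 and 7 in mes-1, or 8.12 ± 1.89 normalized reads in double mutants and 8.90 ± 1.03 in mes-1 (SD, n = 3 each), again overlapping. The reads of dnj-18 were 12, 4 and 6 in double mutants and 16, 12 and 9 in mes-1, or 7.56 ± 3.40 normalized reads in double mutants and 11.3 ± 2.53 in mes-1 (SD, n = 3 each). This last set is the least certain, since about 0.25 sets would match such a mean by accident, against 0.15 for dnj-28, 0.075 for dnj-4 and 0.018 for dnj-3. The middle double mutant library was the low one for dnj-18, and the genotypes overlap. The gene dnj-26 had 3 reads in the deepest mes-1 library and 0 in the other mes-1 libraries and in all double mutant libraries. A count of 0 allows up to 3 reads, so no fold change is given for dnj-26.

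**Figure D4:**
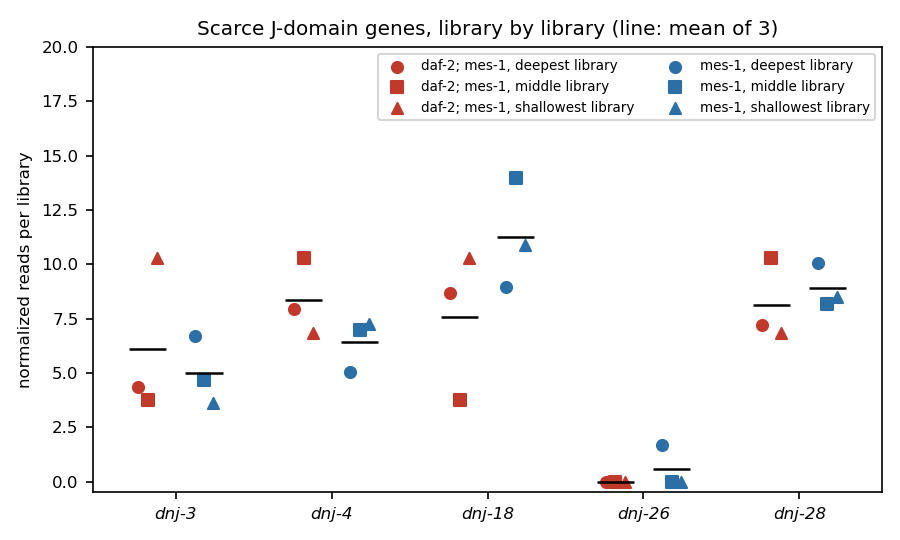
Normalized reads per library (vertical axis) of 5 scarce J-domain genes, with double mutant libraries left of mes-1 libraries, symbols for library depth within the genotype and lines for the mean of 3 libraries. The genotypes overlap for dnj-3, dnj-4, dnj-18 and dnj-28, and dnj-26 is above 0 in 1 mes-1 library.

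The genes of the CCT chaperonin mostly had positive fold changes, but none passed the test. Of the 8 subunit genes 7 had log2 values above 0 in the authors' deposited table, as did 4666 of all 9820 genes. The 7 ran from 0.06 for cct-6 to 0.50 for cct-4, with a median over all 8 of 0.38, beside -0.03 for all genes. DESeq2 called 0 of the 8, where 10.3% of all genes were called, and 1 (cct-4) had a bounded unadjusted p under 0.05. The subunit genes are not replicates of each other, and a common shift was not tested. The highest value, that of cct-4 (chromosome II from 8283611 to 8285661), came with 49.8 RPKM in double mutants and 34.6 RPKM in mes-1, an interval from 0.03 to 0.96 and an adjusted p of 0.22 in the authors' deposited table (DESeq2). For cct-1, cct-7, cct-2 and cct-3 the authors' deposited table gave 0.43, 0.40, 0.38 and 0.37 on that scale, and the lower ends of their intervals lay between -0.09 and -0.04. The gene cct-5 had 53.3 RPKM in double mutants and 48.7 RPKM in mes-1, with a log2 fold change of 0.19 in the authors' deposited table. Exons of cct-7 overlap those of Y32G9A.8 on the opposite strand, which had a log2 fold change of -0.07 and a mean normalized count of 237, and exons of cct-1 overlap T05C12.8, with a mean of 0.869, in the authors' deposited table.

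The exception was cct-8 (chromosome IV from 1087110 to 1093927), with 25.5 RPKM in double mutants and 32.9 RPKM in mes-1. The authors' deposited table gave cct-8 a log2 fold change of -0.32, with an interval from -0.80 to 0.15 and an adjusted p of 0.619 (DESeq2). By RPKM it was the lowest of the 8 subunit genes in double mutants, where it had 0.587 of the mean of the other 7 (43.4 RPKM), and the 4th highest in mes-1, where it had 0.956 of their mean (34.4 RPKM). The interval of cct-8 overlaps those of the other subunits, and the difference between subunits was not tested. Over the 8 genes the RPKM of the authors' deposited table summed to 330 in double mutants and 274 in mes-1. The highest subunit gene stood 2.12 times above the lowest in double mutants and 1.87 times in mes-1.

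**Figure D5:**
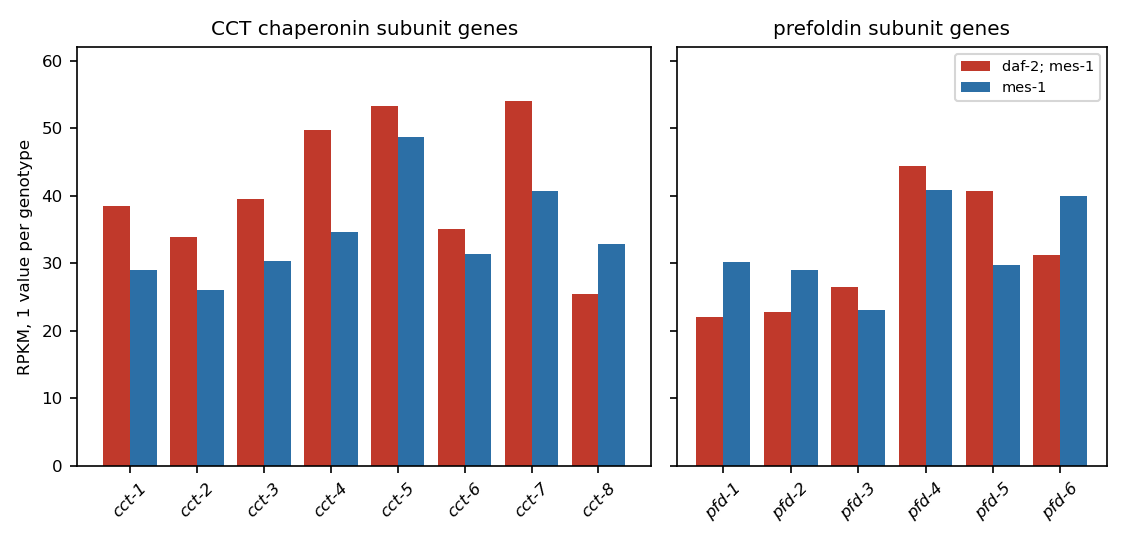
RPKM in the authors' deposited table (vertical axis from 0, 1 value per genotype, no error) of the 8 CCT and 6 prefoldin subunit genes, with double mutants left of mes-1 in each pair. The double mutant bar is the higher one for 7 CCT genes and 3 prefoldin genes, and cct-8 is the lowest CCT gene in double mutants at 25.5 RPKM.

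Prefoldin, the partner that delivers clients to CCT, had no common direction. Of its 6 subunit genes, the authors' deposited table gave 3 a positive and 3 a negative log2 fold change, and their median was -0.12. DESeq2 called 0 of the 6, where 10.3% of all genes were called, and 0 had a bounded unadjusted p under 0.05. The highest was pfd-5, of the alpha type, with 40.7 RPKM in double mutants and 29.8 RPKM in mes-1 and a log2 fold change of 0.40 (interval from -0.29 to 1.08) in the authors' deposited table. The other alpha-type gene, pfd-3, had 26.4 RPKM in double mutants and 23.1 RPKM in mes-1, with a log2 fold change of 0.19. For the beta-type genes pfd-1, pfd-2, pfd-6 and pfd-4 the authors' deposited table gave log2 values of -0.40, -0.34, -0.30 and 0.05. Their levels there ran from 22.04 to 44.3 RPKM in double mutants and from 29.1 to 40.8 RPKM in mes-1. The subunit genes summed to 188 RPKM in double mutants and 193 RPKM in mes-1 in the authors' deposited table. The median implied standard error was 0.35 for prefoldin genes and 0.24 for CCT genes.

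Further co-chaperones of Hsp70 and Hsp90 were also without a call. Of 11 such genes (cdc-37, daf-41, pph-5, fkb-6, unc-45, chn-1, bag-1, unc-23, sgt-1, ahsa-1 and hip-1) DESeq2 called 0, where 10.3% of all genes were called. None of the 11 had a bounded unadjusted p under 0.05, where 1763 of all 9820 genes had one. Their median log2 fold change in the authors' deposited table was -0.04, from -0.55 for the nucleotide exchange factor gene bag-1 to 0.46 for the Hsp90 ATPase activator gene ahsa-1. The kinase-loading gene cdc-37 had 42.2 RPKM in double mutants and 35.1 RPKM in mes-1, and the p23 gene daf-41 had 57.2 RPKM in double mutants and 63.2 RPKM in mes-1, per the authors' deposited table. For unc-45, the myosin chaperone that works with Hsp90 in muscle, the authors' deposited table gave a log2 fold change of -0.12, and for hip-1, an Hsp70-interacting gene, 0.40. Of the heat shock factor genes and regulators 4 were in the table and 3 had an adjusted p. DESeq2 called 0 of the 3, with 0 at a bounded unadjusted p under 0.05, beside the same shares of all genes. The authors' deposited table gave hsf-1 itself 11.1 RPKM in double mutants and 9.75 RPKM in mes-1, and a value of 0.25 on the log2 scale (adjusted p = 0.853, DESeq2). Its inhibitor gene hsb-1 had 67.1 RPKM in double mutants and 55.4 RPKM in mes-1, with a log2 fold change of 0.20, per the authors' deposited table. The mitochondrial Hsp70 gene hsp-6 and Hsp90 gene hsp-75 (listed as R151.7) were not called either, at 0.45 and 0.16 on the log2 scale of the authors' deposited table. The interval of hsp-6 ran from 0.03 to 0.86, with a bounded unadjusted p of 0.0349 and an adjusted p of 0.218 (DESeq2), and that of hsp-75 from -0.44 to 0.77.

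The clients of CCT and prefoldin, actins and tubulins, included 1 riser and 1 faller among 17 genes with an adjusted p, or 11.8%, where 10.3% of all genes were called. The beta-tubulin gene tbb-6 rose by 1.30 on the log2 scale (adjusted p = 3.44e-07, DESeq2), with 91.9 RPKM in double mutants and 36.3 RPKM in mes-1 in the authors' deposited table. The microvillus actin gene act-5, which is expressed in the intestine and counted among its markers, fell by 1.53 on the log2 scale (adjusted p = 6.33e-13, DESeq2), with 192 RPKM in double mutants and 562 RPKM in mes-1 in the authors' deposited table. The client genes act-4, tbb-2, act-1 and act-3, with higher mean normalized counts than act-5, were not called. For the actin gene act-4 the log2 value was 0.44 (adjusted p = 0.103, DESeq2), and the tubulin genes tbb-2 and tba-2 had 0.16 and -0.33 in the authors' deposited table. The scarce alpha-tubulin gene tba-9 had 5.43 RPKM in double mutants and 2.11 RPKM in mes-1, with a log2 fold change of 1.16, a bounded unadjusted p of 0.0164 and an adjusted p of 0.125 (DESeq2), and was not called. Some of the actin genes, and some of the tubulin genes, are near-identical copies that may share reads. The median of the 17 was 0.04, beside 0.38 for the CCT genes and -0.12 for the prefoldin genes.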

How the data were processed

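The data were 1 deposited table of the authors' own comparison. TopHat2 and DESeq2 appear in the submitters' processing notes and Cuffdiff2 in the file headers, all without versions, and the build and annotation were not stated. Per the file headers, the signal values are mean normalized counts, the log2 fold change and the Benjamini-Hochberg adjusted p-value come from DESeq2, and the RPKM values, 1 per genotype, from Cuffdiff2. Libraries were depleted of ribosomal RNA and do not mark strand, per the labels' protocols. With no counts per sample, the planned count test could not be run, and calls are the authors' own. Members were found by a rule on gene names, but that rule and the lists were drawn up with earlier results of these data known. Unadjusted p-values were bounded by inverting the adjustment over 9820 genes, and each bound was turned into an implied standard error through the normal distribution; both steps were tested on simulated data. Reads per library were recovered for members with a mean under 10 and a unique solution. In 148 of 148 other genes with one, their direction was that of the deposited fold change. Libraries were assigned to genotypes by the sign of that same fold change in the scarcest genes. The check compares genotypes only, so it does not test how reads were split among the libraries of a genotype. Total reads per sample were not stated, and the recovered size factors run from 0.584 to 1.79. Lists were matched by gene ID, and exon overlaps came from Ensembl release 115 by gene ID only. Values are named for every member of the Hsp70 and Hsp90 group, every called member, the 5 J-domain genes with the highest means, and the highest and lowest of each group; the remaining members named were picked once their values were known. Python 3.11.15, pandas 2.3.3, numpy 2.4.6 and scipy 1.17.1 were used. Other thresholds, measures and member sets were tried as alternatives. Promoter sequences were not analysed here.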

Additional observations from a re-analysis of the deposited data

How the results depend on the processing

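The rise of hsp-70 and the fall of dnj-7 were the calls at adjusted p thresholds of 0.05, 0.01 and 0.1, with a minimum log2 fold change of 0.5, with at least 5 RPKM in one genotype, and without the 7 members whose exons overlap another gene. Without the dnj genes assigned here to the ER and mitochondrion, the count of members that fell was 0, because dnj-7 is one of them. The median log2 fold change of the members, 0.03, ran from 0.01 with RPKM ratios (pseudocounts 0.1, 1 and 5) to 0.19 without dnj genes. With RPKM ratios and a pseudocount of 1, all 47 members moved by less than their implied standard error where they had one, and 1, dnj-2, changed sign. No paired analysis was possible because the table holds no values per sample. For the same reason no sample could be left out in turn, so whether 1 library decides the values of hsp-70 or dnj-7 was not tested. The motif search in promoters was not run. Implied standard errors, which hold counting error and the spread between samples together, ran from 0.19 for dnj-20 (mean normalized count 751) to 0.56 for dnj-4 (7.40), and the share due to depth was not tested.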
